A study of Mus musculus with 9 samples.

Results

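Kinesins are motor proteins that use ATP to move along microtubules or to take microtubule ends apart. Mitotic kinesins build the spindle, align the chromosomes and complete cell division, and their genes are transcribed mainly in G2 and mitosis. Transport kinesins carry vesicles, organelles and the building material of cilia, and several of them are best known from neurons. The family is described here across fibroblasts that received an shRNA against RPA1, an shRNA against HSF1 or a control shRNA. Members were the genes whose only symbol on the array has the form Kif or Kifc followed by a number, and 39 of the 19938 genes tested met it. They were grouped by textbook role into 11 mitotic kinesins, 17 transport kinesins and 11 others. The rule uses gene names alone.

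The cells were immortalized mouse embryonic fibroblasts (MEFs) from the ICR stock. The adenovirus that delivered the shRNA, at 1e8 pfu/ml for 2 h and with RNA taken after a further 70 h, was common to all 3 groups. A temperature of 37 °C and 10% serum were also common to them. RPA1 is the largest subunit of the single-strand DNA binding complex of replication and repair, HSF1 is the main transcription factor of the heat shock response, and the control hairpin is the one labelled scr in the sample titles. Each group had 3 Affymetrix Mouse Gene 1.0 ST arrays, and the labels do not say whether these came from separate cultures, so p-values measure the spread between these arrays, which may be technical. The series asked whether the complex of HSF1 and RPA regulates gene expression.

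All values are log2 signals, 1 per probe set and array, and a difference of 1 is a doubling. Differences are read within a gene across arrays, since the height of a signal also depends on its probes. A gene was called when limma's Benjamini-Hochberg adjusted p, over all 19938 genes, was under 0.05, and only such genes are said to have risen or fallen. With 3 arrays against 3, an exact permutation test of 1 gene could not go below p = 0.1. Rpa1 itself read 9.42, 9.34 and 9.40 in the RPA1 shRNA arrays, 11.35, 11.33 and 11.30 in the HSF1 shRNA arrays and 11.40, 11.42 and 11.41 in the control arrays, so it was 4.06-fold lower under RPA1 shRNA (log2 -2.02 ± 0.04, SE; limma adjusted p = 3.5e-08). Hsf1 is not analysed here. Array 3 of the RPA1 group stood apart. In 408 genes both of its fellow arrays lay at least 2-fold away from the control mean on the same side, and array 3 showed a median of 0.685 of their mean shift, against 1.07 and 1.04 when arrays 1 and 2 were read in the same way. Kinesin calls that changed without that array are therefore also given.

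The fibroblast label was set beside marker lists. Background was not measured and a signal depends on its probes, so the presence of a marker could not be read from its height, and the lists are described by how they changed. Fibroblast markers were lower under RPA1 shRNA: 7 of 10 fell and 0 rose (14.7% of all genes fell and 15.4% rose). Under HSF1 shRNA 4 of the 10 fell (40.0%, against 6.21% of all genes) and 1 rose (10.0%, against 9.89%). The falls under HSF1 shRNA numbered 1 without control array 1 and 6 without RPA1 shRNA array 3. The summed log2 signal of the fibroblast markers was 102.3 to 104.2 in RPA1 shRNA arrays, 107.0 to 108.1 in HSF1 shRNA arrays and 108.5 to 109.2 in control arrays. Of 9 neural markers, 4 rose (44.4%) and 1 fell (11.1%) under RPA1 shRNA, with summed signals of 75.2 to 75.6 in RPA1 shRNA, 74.9 to 75.2 in HSF1 shRNA and 73.5 to 73.8 in control arrays. The rises numbered 2 to 4 when any 1 array was left out, with 2 without control array 1. The fall was lost when any 1 array but array 1 of RPA1 shRNA or of HSF1 shRNA was left out. Of 6 macrophage and blood markers 2 rose under RPA1 shRNA (33.3%), Cd68 (log2 2.06) and Csf1r (0.36), and the other 4 were not called. Their list summed to 43.7 to 44.0 in RPA1 shRNA, 42.2 to 42.5 in HSF1 shRNA and 40.6 to 41.5 in control arrays. Most of the difference between RPA1 shRNA and control sums was that of Cd68. Of 7 muscle markers 3 rose, Des (0.63), Acta1 (0.49) and Ckm (0.19), with sums of 54.9 to 55.3 in RPA1 shRNA, 54.3 to 54.8 in HSF1 shRNA and 53.6 to 53.9 in control arrays. Of 8 epithelial and 6 endothelial markers 1 each rose, and 0 of 4 adipocyte markers was called under RPA1 shRNA. Without control array 2 or 3 or RPA1 shRNA array 1 or 2, 2 muscle and 0 endothelial markers rose. The part of these shifts in the kinesin results was not tested. In bulk RNA, fewer cells of one kind and less RNA per cell cannot be told apart.

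RPA1 shRNA was first set against the control, to ask which kinesins differ under it. Effects of a hairpin on genes other than its target were not tested. Of the 39 kinesins, 16 were called (41.0%, where 30.1% of all genes tested were called). They comprised 3 rises (7.69% of the family, against 15.4% of all genes) and 13 falls (33.3%, against 14.7%). Brighter genes were called more often, and 28 of the 39 kinesins lay above the median gene in mean signal. In a fit of the 9969 genes above that median, 5135 were called, 2431 higher and 2704 lower. Calls thus took a larger share there than in the family, and falls a smaller one. The part of signal height in the family's counts was not tested. The median difference of the family was -0.129, and that of all genes was 0.017. By role, 4 mitotic kinesins fell and 1 rose of 11, 6 transport kinesins fell and 2 rose of 17, and 3 of the 11 others fell. The leading falls were those of Kif26b, Kif21b and Kif18a, and the rises those of Kif1a, Kif18b and Kif21a. Among the 16 called genes, RPA1 shRNA array 3 was the nearest of its group to the control in 12. Without it 19 kinesins were called, 3 higher and 16 lower: Kif14, Kif20b and Kif5a were added as falls and Kif1c as a rise, and the call of Kif21a was lost (limma adjusted p = 0.058). The falls among the others numbered 1 without RPA1 shRNA array 1 or control array 3, and the rises among transport kinesins 1 without control array 1 or 3.

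HSF1 shRNA was then set against the same control arrays. In that comparison 9 of the 39 kinesins were called (23.1%, where 16.1% of all genes were called), with 4 rises (10.3%, against 9.89% of all genes) and 5 falls (12.8%, against 6.21%). In the fit of the 9969 genes above the median gene, 3179 were called, 1844 higher and 1335 lower, a larger share than in the family. The family's median difference was 0.011 and that of all genes 0.036. Transport kinesins supplied 3 rises and 3 falls, mitotic kinesins 2 falls and the others 1 rise. The count of called kinesins depended on single arrays: 4 were called without HSF1 shRNA array 3 or control array 2, 5 without HSF1 shRNA array 2 or control array 1, and 14 without RPA1 shRNA array 3, which enters the fit only through the common estimate of the spread. Mitotic falls numbered 1 when any 1 control array or HSF1 shRNA array 2 or 3 was left out, transport falls 1 without HSF1 shRNA array 2 or 3 or control array 2, transport rises 5 without RPA1 shRNA array 3, and the rise among the others was lost without HSF1 shRNA array 1 or 3 or control array 1 or 2.

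The direct comparison of RPA1 shRNA with HSF1 shRNA asked where the 2 knockdowns differ. It gave 17 called kinesins (43.6%, where 24.4% of all genes were called), 3 higher under RPA1 shRNA (7.69%, against 9.71% of all genes) and 14 lower (35.9%, against 14.7%). In the fit of the 9969 genes above the median gene, 4462 were called, 1711 higher and 2751 lower. The share called there was near that of the family, and the share of falls was smaller. The median difference was -0.128 for the family and -0.020 for all genes. By role there were 1 rise and 5 falls among mitotic kinesins, 2 rises and 5 falls among transport kinesins and 4 falls among the others. The count of called kinesins was 21 without RPA1 shRNA array 3, where Kif11 (-0.21, limma adjusted p = 0.0099) and Kif5b (-0.19, 0.047) were added as falls and Kif13a (0.28, 0.0034) and Kif15 (0.30, 0.0033) as rises. It was 11 without RPA1 shRNA array 1 or HSF1 shRNA array 1. Mitotic falls numbered 6 without RPA1 shRNA array 3 and 1 without array 1 or 2 of RPA1 shRNA or array 1 or 3 of HSF1 shRNA. With quantile, median or cyclic loess scaling they numbered 3. This contrast and the 2 before it share arrays, so their values are set side by side and no agreement between them is counted.

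**Figure D1:**
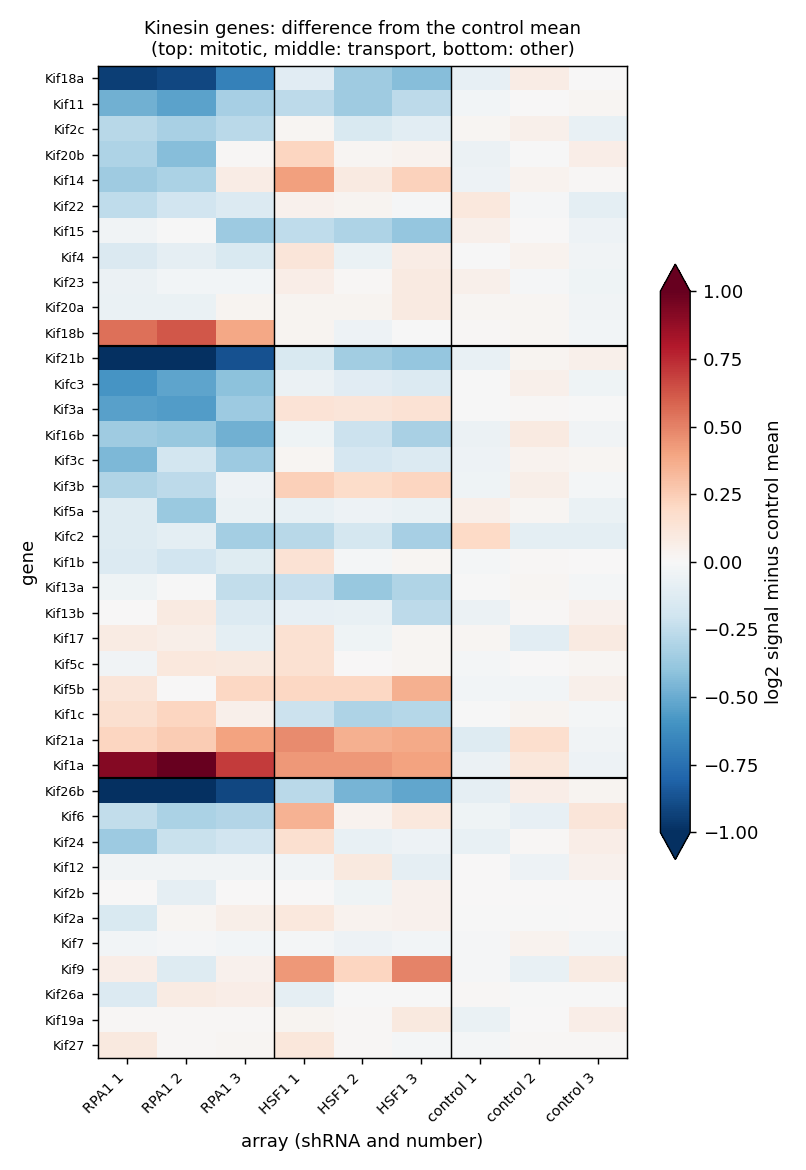
Each row is a kinesin gene and each column an array, in the order RPA1 shRNA, HSF1 shRNA, control shRNA; the colour is the log2 signal minus the mean of the 3 control arrays, and lines part mitotic, transport and other kinesins. Blue rows such as Kif26b, Kif21b and Kif18a and the red rows Kif1a and Kif18b are seen in all 3 RPA1 shRNA arrays, while rows such as Kif20a, Kif23 and Kif7 stay near white in all arrays.

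Among mitotic kinesins Kif18a and Kif18b had the largest differences from the control under RPA1 shRNA. Kif18a limits the growth of kinetochore microtubules and so aligns chromosomes. Its signal was 8.68, 8.71 and 8.94 in RPA1 shRNA arrays, 9.50, 9.26 and 9.19 in HSF1 shRNA arrays and 9.54, 9.69 and 9.62 in control arrays. The RPA1 shRNA arrays were all below the others, and all HSF1 shRNA arrays were below all control arrays. Under RPA1 shRNA Kif18a fell 1.79-fold (-0.84 ± 0.10, SE; limma adjusted p = 0.00018) and was also lower than under HSF1 shRNA (-0.54 ± 0.10, 0.0032). The difference of HSF1 shRNA from the control, -0.30 ± 0.10, did not pass (adjusted p = 0.064) but did without RPA1 shRNA array 3.

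Kif18b, which in human cells restrains astral microtubules, was the only mitotic kinesin that rose. It read 12.44, 12.51 and 12.28 under RPA1 shRNA, 11.92, 11.84 and 11.89 under HSF1 shRNA and 11.91, 11.91 and 11.86 in the control. All RPA1 shRNA arrays were above the other 6, which overlapped each other. The rise was 1.43-fold over the control (log2 0.52 ± 0.06, limma adjusted p = 0.00024) and 1.44-fold over HSF1 shRNA (0.53 ± 0.06, 0.0005). For HSF1 shRNA against the control the difference was -0.01 ± 0.06 (adjusted p = 0.95). The paralogs Kif18a and Kif18b thus passed the test in opposite directions under RPA1 shRNA.

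Kif11, also called Eg5, slides antiparallel microtubules to push the spindle poles apart. Its signals of 11.96, 11.90 and 12.11 under RPA1 shRNA and 12.17, 12.08 and 12.17 under HSF1 shRNA were all below the control's 12.41, 12.45 and 12.46, while the knockdown groups overlapped. The fall of Kif11 was 1.37-fold with RPA1 shRNA (-0.45 ± 0.06, limma adjusted p = 0.00047) and 1.23-fold with HSF1 shRNA (-0.29 ± 0.06, 0.010). Kif15 can take over part of Kif11's task in human cells. Its signals were 10.85, 10.88 and 10.52 under RPA1 shRNA, 10.63, 10.58 and 10.49 under HSF1 shRNA and 10.93, 10.89 and 10.83 in the control. Only the HSF1 shRNA arrays lay apart from the control, and Kif15 fell there (-0.32 ± 0.09, 0.040), a call lost when any 1 control or HSF1 shRNA array was left out. Under RPA1 shRNA its difference was -0.13 ± 0.09 (adjusted p = 0.31).

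Kif2c, or MCAK, takes microtubule ends apart and so helps to correct faulty kinetochore attachments. Its signals of 11.06, 11.01 and 11.07 under RPA1 shRNA lay below the 11.36, 11.19 and 11.23 of HSF1 shRNA and the control's 11.36, 11.39 and 11.27. It fell by 0.29 ± 0.06 on the log2 scale from the control (limma adjusted p = 0.0043), and the HSF1 shRNA difference of -0.08 ± 0.06 did not pass. Between the knockdowns Kif2c was lower under RPA1 shRNA (-0.21 ± 0.06, limma adjusted p = 0.027), a call lost under 5 of 19 alternatives. Kif22, a chromosome-bound kinesin that pushes chromosome arms outward, fell by 0.19 ± 0.06 under RPA1 shRNA (adjusted p = 0.037). That call was lost under 9 of 19 alternative settings, among them leaving out any 1 of RPA1 shRNA array 1 or 2, HSF1 shRNA array 2 or 3 and control array 1 or 2. Its 10.05, 10.11 and 10.16 under RPA1 shRNA lay below the control's 10.41, 10.29 and 10.20 by a margin smaller than the control's own range. Kif22 was also lower than under HSF1 shRNA (-0.21 ± 0.06, limma adjusted p = 0.030). That second call was lost under 10 of 19 alternatives, among them quantile, median and cyclic loess scaling.

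Kif14 and Kif20b, both kinesins of late cytokinesis, differed between the knockdowns. Kif14 read 9.72, 9.76 and 10.15 under RPA1 shRNA, 10.48, 10.17 and 10.31 under HSF1 shRNA and 10.03, 10.11 and 10.09 in the control. RPA1 shRNA array 3 was above the control and arrays 1 and 2 below it, whereas all HSF1 shRNA arrays were above the control. Kif14 was lower under RPA1 shRNA than under HSF1 shRNA (log2 -0.44 ± 0.11, limma adjusted p = 0.020), a call lost without RPA1 shRNA array 1 or 2 or HSF1 shRNA array 1 or 3. Neither knockdown differed from the control by the test (-0.20 ± 0.11, adjusted p = 0.23, for RPA1 shRNA and 0.24 ± 0.11, adjusted p = 0.20, for HSF1 shRNA), but without RPA1 shRNA array 3 both did, at -0.34 and 0.24. Kif20b gave -0.33 ± 0.11 between the knockdowns (adjusted p = 0.048), a call lost under 14 of 19 alternatives, among them leaving out any 1 array but RPA1 shRNA array 3.

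The midzone kinesins gave no call. Kif23, which forms centralspindlin with Racgap1, Kif20a, which carries the chromosomal passenger complex, and Kif4, a chromatin-bound partner of Prc1, differed from the control by -0.04 ± 0.05, -0.03 ± 0.05 and -0.13 ± 0.06 under RPA1 shRNA, and by 0.06 ± 0.05, 0.05 ± 0.05 and 0.04 ± 0.06 under HSF1 shRNA. Kif20a read 12.03, 12.03 and 12.12 under RPA1 shRNA, 12.12, 12.12 and 12.18 under HSF1 shRNA and 12.11, 12.11 and 12.06 in the control. Over all 11 mitotic kinesins the median difference was -0.194 for RPA1 shRNA and 0.019 for HSF1 shRNA, the second of which was negative with median (-0.016) or cyclic loess (-0.010) scaling. By array, that median stood at -0.254, -0.188 and -0.140 in the RPA1 shRNA arrays and at 0.029, -0.050 and -0.004 in the HSF1 shRNA arrays. Of 6 cell cycle genes read beside them, Mki67 (-0.28), Top2a (-0.20) and Ccnb2 (-0.15) fell under RPA1 shRNA, and Cdk1 (-0.12 ± 0.06), Cdc25c (-0.05 ± 0.05) and Ccna2 (-0.02 ± 0.05) were not called. Under HSF1 shRNA Mki67 fell (-0.29), and the other 5 ranged from -0.15 for Top2a to 0.10 for Ccnb2 without a call. The part of cell cycling in these differences was not tested.

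**Figure D2:**
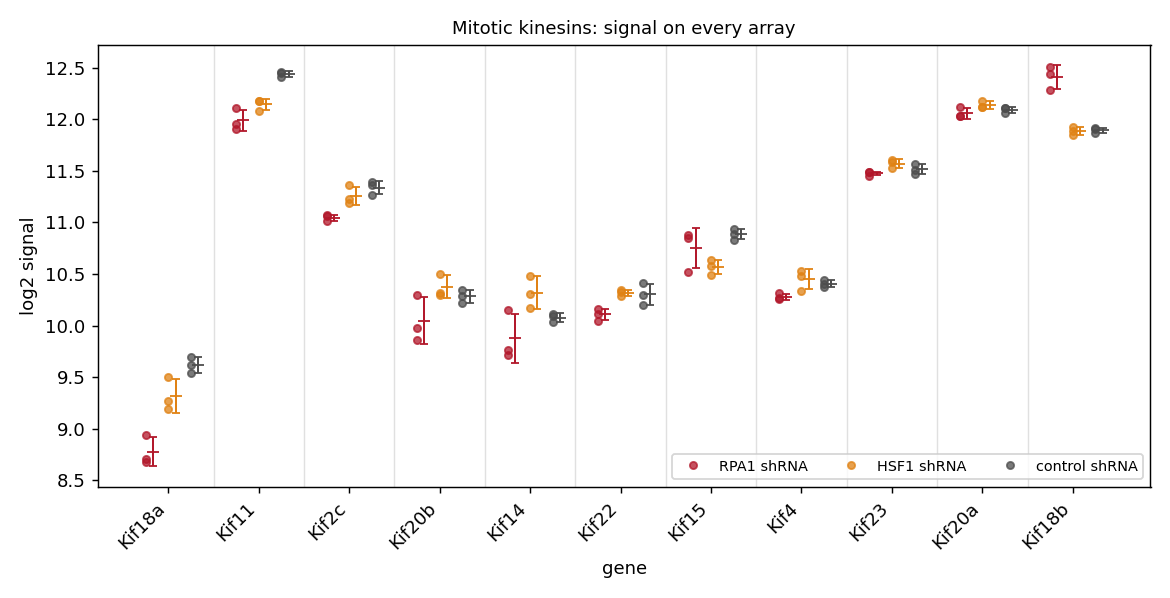
Log2 signal of the 11 mitotic kinesins on every array, with the mean and SD of 3 arrays beside the points, for RPA1 shRNA, HSF1 shRNA and control shRNA from left to right within each gene. The RPA1 shRNA points of Kif18a, Kif11 and Kif2c lie below the control points, those of Kif18b above them, and array 3 of RPA1 shRNA is the highest point of its group for Kif14 and Kif20b.

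Promoter sequences show what the mitotic members share that their choice did not use. Genes of G2 and mitosis commonly carry a cell cycle genes homology region, which binds the DREAM and MuvB complexes, and CCAAT boxes, which bind NF-Y. RefSeq promoter windows of GRCm38.p6, from 250 bases before the transcript start to 50 after it, were matched for 31 of the 39 kinesins. Both strands were searched for TTTGAA, the core of the homology region, and for CCAAT, which can share an end base with it. The stretches below run from 110 bases before the start to 30 after it, 5′ to 3′ on the gene's strand. Capitals mark TTTGAA or its reverse complement TTCAAA and CCAAT or its reverse complement ATTGG. They are 5 mitotic kinesins with the motif near the start, among them genes that fell (Kif11, Kif22) and one that rose (Kif18b) under RPA1 shRNA, then Kif18a, whose window has neither motif, and the transport kinesins Kif3b and Kif3c.
Kif11 (chr19:37376272-37376411, plus strand): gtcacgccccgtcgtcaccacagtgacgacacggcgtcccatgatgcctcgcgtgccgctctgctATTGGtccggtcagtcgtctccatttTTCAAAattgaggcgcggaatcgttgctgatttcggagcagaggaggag
Kif15 (chr9:122950971-122951110, plus strand): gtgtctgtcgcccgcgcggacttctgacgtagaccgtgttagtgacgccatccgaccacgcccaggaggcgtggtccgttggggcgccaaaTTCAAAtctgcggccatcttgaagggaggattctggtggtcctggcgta
Kif22 (chr7:127042391-127042530, minus strand): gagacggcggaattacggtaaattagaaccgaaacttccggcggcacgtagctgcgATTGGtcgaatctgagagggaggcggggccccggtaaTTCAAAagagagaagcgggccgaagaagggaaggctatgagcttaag
Kif20b (chr19:34922248-34922387, plus strand): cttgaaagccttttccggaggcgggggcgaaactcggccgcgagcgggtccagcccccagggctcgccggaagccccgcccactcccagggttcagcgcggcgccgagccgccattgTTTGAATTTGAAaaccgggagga
Kif18b (chr11:102925095-102925234, minus strand): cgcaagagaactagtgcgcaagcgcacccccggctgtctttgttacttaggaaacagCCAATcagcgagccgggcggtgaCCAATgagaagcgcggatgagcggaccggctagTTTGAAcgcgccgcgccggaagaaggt
Kif18a (chr2:109280628-109280767, plus strand): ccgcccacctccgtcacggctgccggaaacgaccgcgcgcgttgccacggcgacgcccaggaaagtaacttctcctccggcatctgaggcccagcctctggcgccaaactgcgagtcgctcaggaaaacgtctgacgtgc
Kif3b (chr2:153291306-153291445, plus strand): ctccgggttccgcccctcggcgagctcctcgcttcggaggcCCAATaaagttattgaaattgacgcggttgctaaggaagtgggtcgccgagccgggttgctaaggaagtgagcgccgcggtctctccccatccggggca
Kif3c (chr12:3365022-3365161, plus strand): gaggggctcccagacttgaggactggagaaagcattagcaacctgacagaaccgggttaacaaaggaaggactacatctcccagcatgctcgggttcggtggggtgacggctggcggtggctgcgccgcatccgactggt

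TTTGAA was present in the windows of 9 of 10 mitotic kinesins, against 1 of 11 transport kinesins, 2 of 10 others and 20.2% of the 27025 genes of the table. By window the share over the whole table was 17.9% of 32851. In Kif11 and Kif15 it began at position -19 and in Kif22 at -17, all on the opposite strand. In Kif18b it began at 4 and in Kif23 at 3, and Kif20b held 2 adjoining copies at 8 and 14. Kif18a, whose fall under RPA1 shRNA was the deepest of the mitotic kinesins, was the 1 of the 10 searched without it, and Kif18b, which rose, had it. The remaining mitotic kinesin, Kif20a, had no window. The part of the motif in the differences was not tested. Kif14 and Kif2c carried TTTGAA in windows whose start lies over 1000 bases inside the gene. The same holds for the matches of the transport kinesin Kif1a and of Kif27, one of the others. Kif26b, also one of the others and the deepest fall of the family under RPA1 shRNA, had TTTGAA at -9 and CCAAT at -73. CCAAT was found in 6 of 10 mitotic, 3 of 11 transport and 5 of 10 other kinesins, and in 41.1% of all genes.

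A heat shock element is built of GAA units in alternating orientation, so pairs of units were searched as TTCNNGAA and GAANNTTC. TTCNNGAA was in the window of Kif5c and of none of the other 30 kinesins, and in 8.52% of all windows. GAANNTTC was in that of Kif22 and of none of the other 30, and in 7.86% of all windows. Neither gene was called under HSF1 shRNA, at 0.06 ± 0.06 for Kif5c and 0.02 ± 0.06 for Kif22. A match describes letters in a window and not a bound site, and no match says only that these letters are not in this window.

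**Figure D3:**
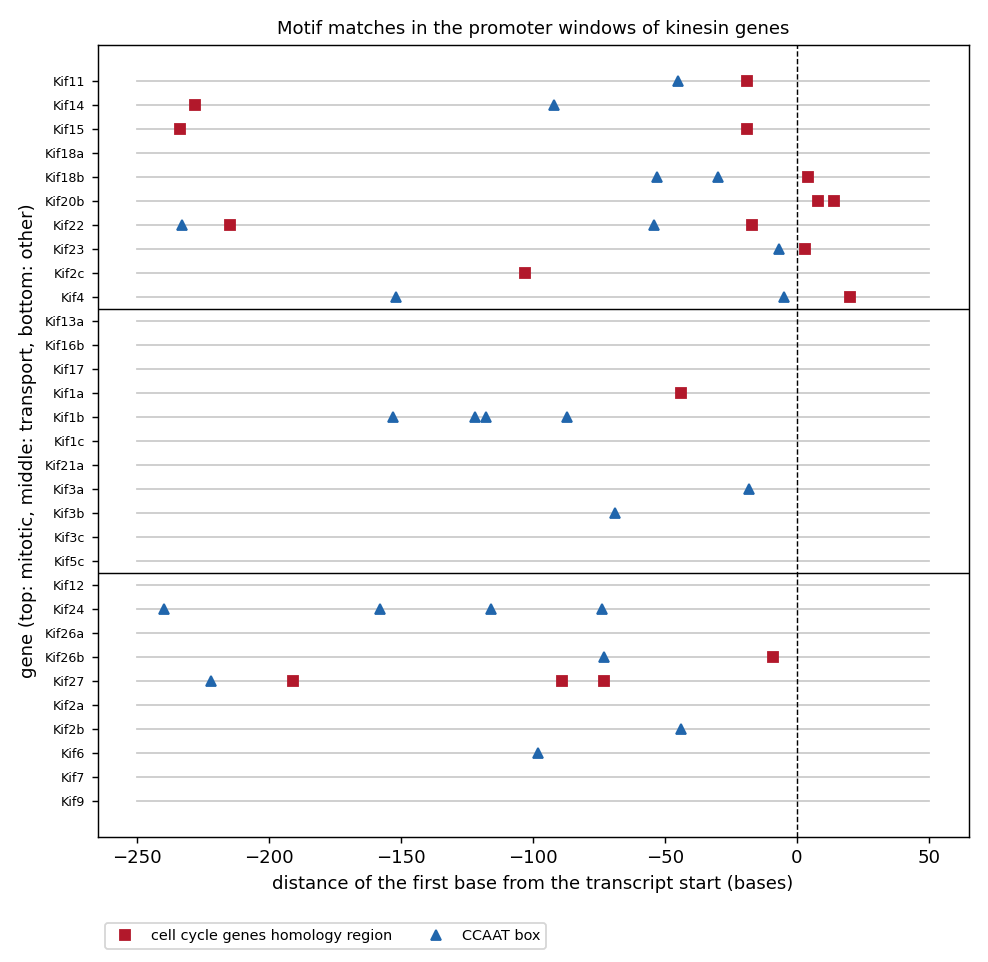
Motif matches in the RefSeq promoter windows of 31 kinesin genes, plotted by the distance of the first base from the transcript start (dashed line, in bases), with 1 grey line per gene; red squares are the cell cycle genes homology region TTTGAA and blue triangles CCAAT. Red squares stand on 9 of 10 mitotic lines at the top, on 1 of 11 transport lines and on 2 of 10 other lines.

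Transport kinesins moved both ways, and the kinesin-2 subunit genes Kif3a and Kif3b separated the knockdowns. Kif3a and Kif3b form the heterotrimeric kinesin-2 motor with the adaptor Kifap3 and carry cargo towards the tip of the cilium. Kif3a read 8.78, 8.76 and 8.96 under RPA1 shRNA, 9.46, 9.44 and 9.47 under HSF1 shRNA and 9.32, 9.34 and 9.32 in the control. No group overlapped another: RPA1 shRNA was lowest and HSF1 shRNA highest. Kif3a fell 1.41-fold against the control in RPA1 shRNA arrays (-0.49 ± 0.06, limma adjusted p = 0.00023) and 1.54-fold against HSF1 shRNA (-0.62 ± 0.06, 0.00018). The HSF1 shRNA difference of 0.13 ± 0.06 did not pass (adjusted p = 0.16).

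Kif3b had 9.16, 9.20 and 9.42 under RPA1 shRNA, 9.70, 9.65 and 9.68 under HSF1 shRNA and 9.42, 9.52 and 9.44 in the control. Array 3 of RPA1 shRNA was level with the lowest control array, and all HSF1 shRNA arrays were above all control arrays. Between the knockdowns Kif3b was 1.33-fold lower under RPA1 shRNA (log2 -0.42 ± 0.07, limma adjusted p = 0.0025). Its fall from the control was -0.21 ± 0.07 (adjusted p = 0.049), lost under 15 of 19 alternatives, among them leaving out any 1 array but RPA1 shRNA array 3, and HSF1 shRNA gave 0.21 ± 0.07 (0.069). Without RPA1 shRNA array 3, HSF1 shRNA passed against the control for both Kif3a and Kif3b. Kif3c, which can replace Kif3b as the partner of Kif3a in neurons, read 8.88, 9.14 and 8.96 under RPA1 shRNA, 9.35, 9.15 and 9.19 under HSF1 shRNA and 9.27, 9.36 and 9.34 in the control. It fell under RPA1 shRNA (-0.33 ± 0.08, 0.0093), with all RPA1 shRNA arrays below all control arrays, and gave -0.10 ± 0.08 under HSF1 shRNA. Between the knockdowns Kif3c did not pass (-0.24 ± 0.08, 0.051).

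The kinesin-4 genes Kif21a and Kif21b, whose proteins restrain microtubule growth in neurons, went opposite ways. Kif21b read 9.08, 9.08 and 9.22 under RPA1 shRNA, 9.94, 9.75 and 9.70 under HSF1 shRNA and 10.02, 10.11 and 10.14 in the control. The 3 groups did not overlap, with RPA1 shRNA lowest. Against the control Kif21b fell 1.95-fold in RPA1 shRNA arrays (-0.96 ± 0.07, limma adjusted p = 2.2e-05) and 1.23-fold in HSF1 shRNA arrays (-0.29 ± 0.07, 0.023), the second call lost without array 2 or 3 of either HSF1 shRNA or the control. Between the knockdowns the difference was -0.67 ± 0.07 (0.00036). Kif21a had 8.96, 9.0 and 9.15 under RPA1 shRNA, 9.22, 9.10 and 9.12 under HSF1 shRNA and 8.62, 8.92 and 8.71 in the control, whose second array was close to the RPA1 shRNA arrays. It rose under RPA1 shRNA (0.29 ± 0.08, 0.025) and under HSF1 shRNA (0.40 ± 0.08, 0.010), the first call lost without RPA1 shRNA array 3, control array 1 or control array 3.

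Among the kinesin-3 genes Kif1a rose in both knockdowns. Kif1a carries synaptic vesicle precursors in axons. Its signals were 9.11, 9.24 and 8.90 under RPA1 shRNA, 8.63, 8.63 and 8.60 under HSF1 shRNA and 8.14, 8.31 and 8.15 in the control. The groups did not overlap, with RPA1 shRNA highest and HSF1 shRNA between it and the control. The rise was 1.85-fold with RPA1 shRNA (0.89 ± 0.08, limma adjusted p = 6.7e-05) and 1.34-fold under HSF1 shRNA (0.43 ± 0.08, 0.0087), and the knockdowns differed by 0.46 ± 0.08 (0.0040). All 3 calls held under all 19 alternatives. Beside Kif1a, the neural markers Nes (0.81), Sox10 (0.41), Tubb3 (0.33) and Snap25 (0.16) rose and Map2 (-0.21) fell under RPA1 shRNA, and Tubb3 (0.52), Nes (0.49) and Gfap (0.24) rose under HSF1 shRNA. The fall of Map2 was lost when any 1 array but array 1 of RPA1 shRNA or of HSF1 shRNA was left out. The part of these neural markers in the rise of Kif1a was not tested.

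Kif1c, which moves secretory vesicles and mRNA, read 9.64, 9.69 and 9.53 under RPA1 shRNA, 9.26, 9.17 and 9.19 under HSF1 shRNA and 9.47, 9.50 and 9.45 in the control. The HSF1 shRNA arrays were all lowest and the RPA1 shRNA arrays all highest. With HSF1 shRNA Kif1c fell 1.21-fold (-0.27 ± 0.05, limma adjusted p = 0.0096), a call lost with the mean of its 2 probe sets, and it was 1.33-fold higher under RPA1 shRNA than under HSF1 shRNA (0.41 ± 0.05, 0.00088). Against the control, RPA1 shRNA gave 0.14 ± 0.05 (0.084), which passed without RPA1 shRNA array 3 (0.016). Kif1b, a carrier of mitochondria and synaptic vesicle precursors, was lower under RPA1 shRNA than under HSF1 shRNA (-0.20 ± 0.05, 0.024), a call lost without RPA1 shRNA array 1 or 2 or HSF1 shRNA array 1.

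Kifc3 moves towards microtubule minus ends and acts at the Golgi and at cell junctions. Its signals were 9.57, 9.63 and 9.75 under RPA1 shRNA, 10.10, 10.05 and 10.02 under HSF1 shRNA and 10.16, 10.21 and 10.11 in the control. The RPA1 shRNA arrays lay clear of the others, and the HSF1 shRNA arrays just below the control. With RPA1 shRNA Kifc3 fell 1.42-fold (-0.51 ± 0.06, limma adjusted p = 0.00018) and gave -0.10 ± 0.06 under HSF1 shRNA. The knockdowns differed by -0.41 ± 0.06 (0.0012).

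Kif16b, which moves early endosomes, read 8.40, 8.38 and 8.28 under RPA1 shRNA, 8.71, 8.54 and 8.43 under HSF1 shRNA and 8.70, 8.85 and 8.72 in the control. All RPA1 shRNA arrays were below all others, and Kif16b fell under RPA1 shRNA (-0.40 ± 0.08, limma adjusted p = 0.0033). Kif13a, which serves recycling endosomes, showed 9.55, 9.58 and 9.35 under RPA1 shRNA, 9.36, 9.21 and 9.29 under HSF1 shRNA and 9.59, 9.61 and 9.58 in the control. Array 3 of RPA1 shRNA lay among the HSF1 shRNA arrays and the other 2 beside the control. Kif13a fell under HSF1 shRNA (-0.31 ± 0.07, 0.015), a call lost without control array 1 or 2 or array 2 or 3 of HSF1 shRNA, and gave -0.10 ± 0.07 under RPA1 shRNA.

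Kif5b is the heavy chain of conventional kinesin in most cells. It read 12.17, 12.05 and 12.25 under RPA1 shRNA, 12.25, 12.25 and 12.40 under HSF1 shRNA and 12.02, 12.02 and 12.09 in the control. The HSF1 shRNA arrays were all above the control, and the RPA1 shRNA arrays overlapped both. With HSF1 shRNA Kif5b rose 1.19-fold (0.26 ± 0.07, limma adjusted p = 0.027), a call lost with median (0.086) or cyclic loess scaling (0.056) and without any 1 control array or array 2 or 3 of HSF1 shRNA. Its neuronal paralogs Kif5a and Kif5c gave -0.19 ± 0.08 and 0.06 ± 0.06 under RPA1 shRNA and -0.06 ± 0.08 and 0.06 ± 0.06 under HSF1 shRNA, none of them called. Kif13b, Kif17 and Kifc2 were called in no comparison. Over the 17 transport kinesins the median difference was -0.150 for RPA1 shRNA, -0.064 for HSF1 shRNA and -0.128 between the knockdowns.

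**Figure D4:**
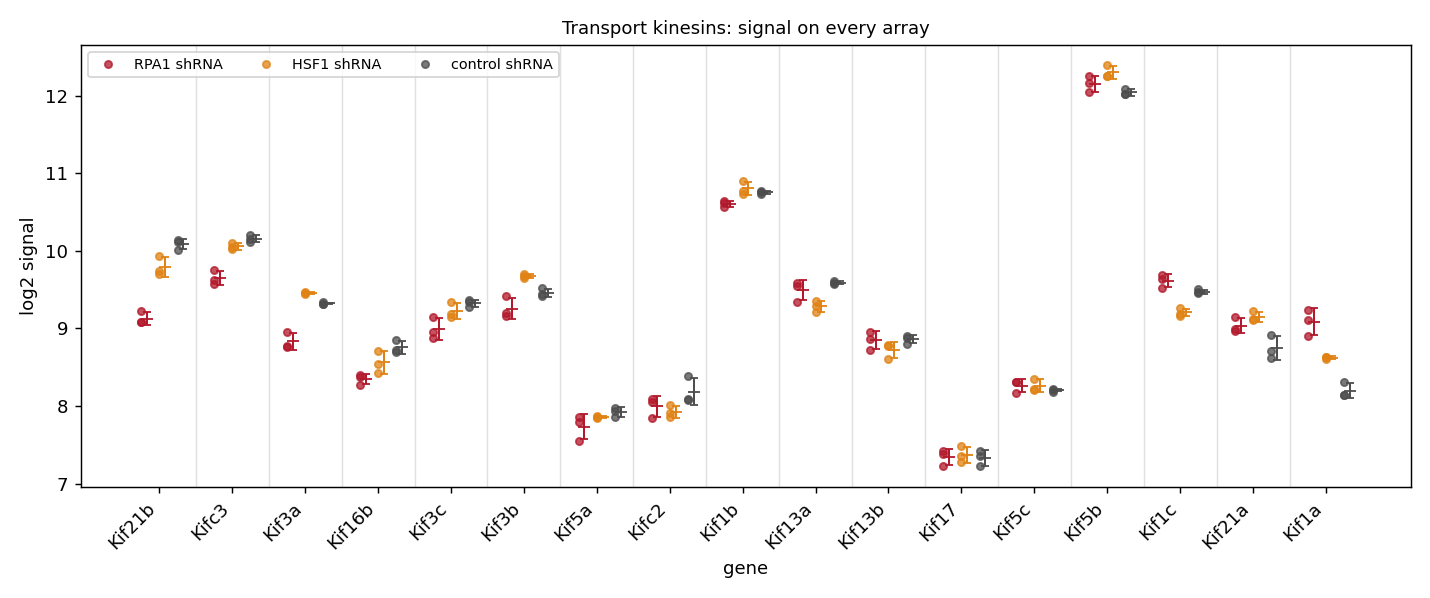
Log2 signal of the 17 transport kinesins on every array, with the mean and SD of 3 arrays beside the points, for RPA1 shRNA, HSF1 shRNA and control shRNA from left to right within each gene. Kif3a, Kif21b, Kif1a and Kif1c are among the genes whose 3 groups do not overlap, while Kif17 and Kif5c overlap throughout.

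Of the remaining kinesins Kif26b had the widest change of the family. Kif26b is an atypical kinesin needed for kidney development in the mouse. Its signals were 8.80, 8.63 and 9.37 under RPA1 shRNA, 10.01, 9.82 and 9.76 under HSF1 shRNA and 10.19, 10.35 and 10.31 in the control. No group overlapped another, and array 3 of RPA1 shRNA was nearer to the control than arrays 1 and 2. With RPA1 shRNA Kif26b fell 2.55-fold (-1.35 ± 0.16, limma adjusted p = 0.00025), and its log2 difference was -1.57 ± 0.09 without array 3. It was lower under RPA1 shRNA than under HSF1 shRNA (-0.93 ± 0.16, 0.0031). The HSF1 shRNA difference of -0.42 ± 0.16 (0.12) passed without RPA1 shRNA array 3 (0.0050). A second probe set of Kif26b gave -1.19 for RPA1 shRNA and -0.33 for HSF1 shRNA against the control.

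Kif9 and Kif6, which belong to motile cilia and sperm flagella in the mouse, were both lower under RPA1 shRNA than under HSF1 shRNA. Kif9 read 7.43, 7.23 and 7.41 under RPA1 shRNA, 7.79, 7.58 and 7.86 under HSF1 shRNA and 7.35, 7.29 and 7.45 in the control. Its HSF1 shRNA arrays were above the other 6. Kif9 rose under HSF1 shRNA (log2 0.38 ± 0.08, limma adjusted p = 0.015), a call lost without array 1 or 3 of HSF1 shRNA or control array 1 or 2, and the knockdowns differed by -0.38 ± 0.08 (0.0096). Kif6 had 7.87, 7.80 and 7.82 under RPA1 shRNA, 8.46, 8.15 and 8.22 under HSF1 shRNA and 8.08, 8.03 and 8.24 in the control, with the RPA1 shRNA arrays below the rest. It fell from the control by 0.28 ± 0.09 (0.030) and differed by -0.45 ± 0.09 between the knockdowns (0.0048). However, the second probe set of Kif6 gave 0.04 for RPA1 shRNA against the control and -0.01 between the knockdowns. The call against the control was lost with the mean of both and without RPA1 shRNA array 1 or 2 or control array 1 or 3.

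Kif24, a centriolar kinesin that holds back cilium assembly in human cells, fell under RPA1 shRNA (-0.26 ± 0.08, limma adjusted p = 0.027), a call lost without RPA1 shRNA array 1 or control array 2 or 3, and gave 0.01 ± 0.08 under HSF1 shRNA. Kif7, which organises Hedgehog signalling at the tip of the cilium, differed from the control by -0.02 ± 0.04 under RPA1 shRNA and by -0.03 ± 0.04 under HSF1 shRNA, and its second probe set by 0.01 and -0.04. Kif2a, a depolymerase relative of Kif2c, gave -0.02 ± 0.06 and 0.06 ± 0.06. The 3 members with the lowest control signals, Kif27, Kif2b and Kif12, gave no call. Kif27 read 6.83, 6.75 and 6.76 under RPA1 shRNA, 6.85, 6.75 and 6.72 under HSF1 shRNA and 6.71, 6.75 and 6.75 in the control. Kif2b read 6.76, 6.68 and 6.76 under RPA1 shRNA, 6.76, 6.72 and 6.81 under HSF1 shRNA and 6.76 in all 3 control arrays. Kif12 read 7.04, 7.05 and 7.05 under RPA1 shRNA, 7.05, 7.18 and 6.99 under HSF1 shRNA and 7.09, 7.03 and 7.13 in the control. The 3 groups overlapped for each of these genes. Kif2b, Kif12, Kif19a, Kif26a and Kif27 were called in no comparison.

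**Figure D5:**
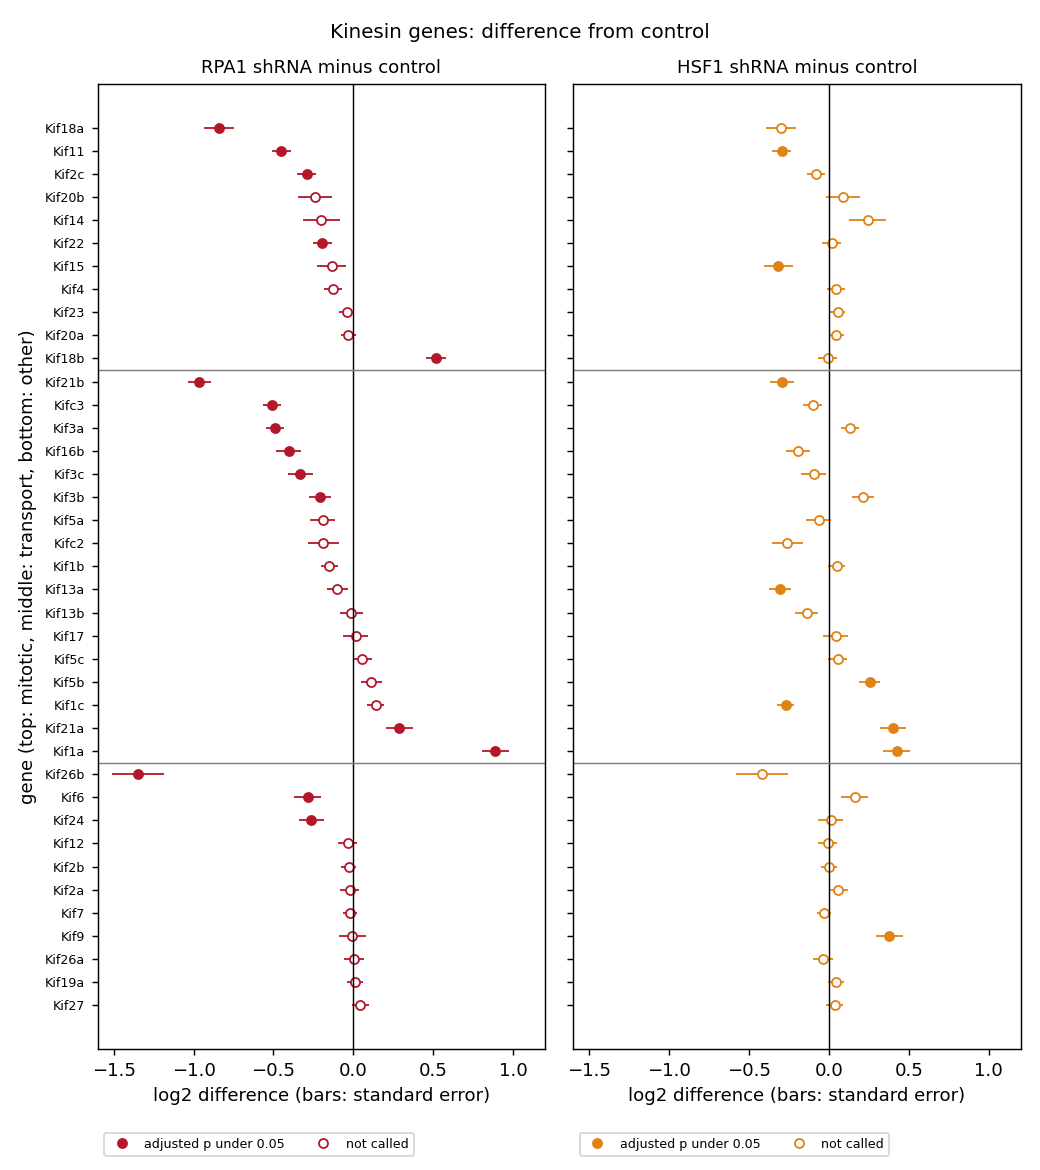
Log2 difference from the control for the 39 kinesins, RPA1 shRNA at the left and HSF1 shRNA at the right, with standard errors as bars; filled points have an adjusted p under 0.05. Both panels share 1 order of genes, and 16 points are filled at the left, 13 of them below 0, against 9 at the right, 5 of them below 0.

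The cargo adaptors and the ciliary genes that work with kinesin-2 were read on the same arrays. Of 11 kinesin light chains and adaptors 3 fell and 1 rose under RPA1 shRNA (36.4% called, near the 30.1% of all genes) and 0 were called under HSF1 shRNA (16.1% of all genes). Kifap3, the third subunit of kinesin-2, had 8.84, 8.84 and 9.02 under RPA1 shRNA, 9.75, 9.55 and 9.61 under HSF1 shRNA and 9.63, 9.55 and 9.58 in the control. All RPA1 shRNA arrays were below the other 6, and Kifap3 fell by 0.68 ± 0.07 (limma adjusted p = 0.0001), as did Mapk8ip1, a cargo adaptor of kinesin-1 (-0.52 ± 0.07), and Kifbp, which binds and blocks kinesin motor domains (-0.34 ± 0.05). Trak2, the adaptor for mitochondria, rose by 0.41 ± 0.06. Between the knockdowns 3 fell and 2 rose: Kifap3 at -0.73, Mapk8ip1 at -0.54, Kifbp at -0.45, Trak2 at 0.37 and Trak1 at 0.28, with 45.5% called against 24.4% of all genes, and 1 rise without array 1 or 2 of RPA1 shRNA or array 2 or 3 of HSF1 shRNA. Without RPA1 shRNA array 3, 2 rose under RPA1 shRNA. The light chain genes Klc1 and Klc3 gave 0.03 ± 0.06 and -0.03 ± 0.06 under RPA1 shRNA.

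Of 18 cilium and Hedgehog genes 14 fell (77.8%, against 14.7% of all genes) and 0 rose under RPA1 shRNA, with a median of -0.404 where that of all genes was 0.017. The intraflagellar transport genes Ift80 (-0.82 ± 0.06), Ift74 (-0.55 ± 0.11) and Ift172 (-0.51 ± 0.06) and the transcription factor gene Gli2 (-0.62 ± 0.06) led the falls. Under HSF1 shRNA 3 fell (16.7%, against 6.21%): Ift52 (-0.62 ± 0.08), Gli2 (-0.46 ± 0.06) and Smo (-0.42 ± 0.10). Between the knockdowns 10 were lower (55.6%, against 14.7% of all genes) and 2 higher (11.1%, against 9.71%) under RPA1 shRNA, with Ift80 at -0.81, Ift74 at -0.77, Ift57 at -0.72 and Ift122 at -0.51. The falls under RPA1 shRNA numbered 12 to 14 when any 1 array was left out. Those under HSF1 shRNA numbered 2 without control array 1 or 2 or HSF1 shRNA array 2 or 3. They numbered 5 without RPA1 shRNA array 3, where 2 genes also rose. The genes higher between the knockdowns numbered 1 without RPA1 shRNA array 1 or HSF1 shRNA array 3. Genes lower between the knockdowns numbered 8 without array 1 of RPA1 shRNA or of HSF1 shRNA and 11 without RPA1 shRNA array 3.

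Genes of the mitotic machinery that work with the mitotic kinesins were called at shares near those of all genes. All of them read above the median gene (8.39), however. In the fit of the 9969 genes above it, 5135 were called under RPA1 shRNA, 3179 under HSF1 shRNA and 4462 between the knockdowns. Each of these is a larger share than that of the partners. Of 25 such partners 5 fell and 3 rose under RPA1 shRNA (32.0% called, against 30.1% of all genes), with a median of -0.050: the microtubule end binding genes Mapre2 (-0.50 ± 0.08) and Mapre1 (0.40 ± 0.07) in opposite directions, the kinetochore gene Spc24 (-0.48 ± 0.06) and the spindle gene Nusap1 (-0.28 ± 0.07). Under HSF1 shRNA 2 fell and 2 rose (16.0%, against 16.1%). Cenpe, itself a kinesin of the kinetochore but named outside the Kif scheme, read 11.10, 11.12 and 11.09 under RPA1 shRNA, 10.83, 10.71 and 10.69 under HSF1 shRNA and 11.11, 11.11 and 11.11 in the control. Its HSF1 shRNA arrays stood below the other 6, and Cenpe fell there by 0.37 ± 0.05 (limma adjusted p = 0.0013). The kinase gene Aurka rose under HSF1 shRNA (0.32 ± 0.06), as did Mapre1 (0.28 ± 0.07), and Tpx2, a spindle assembly factor, fell (-0.23 ± 0.05). Between the knockdowns 3 fell and 2 rose (20.0%, against 24.4%), among them Mapre2 (-0.44), Cenpe (0.36), Spc24 (-0.34) and Mapre3 (0.25), with 1 rise when any 1 array but RPA1 shRNA array 3 was left out. Without RPA1 shRNA array 3 there were 5 falls under HSF1 shRNA and 7 between the knockdowns. The rises under RPA1 shRNA numbered 1 without control array 1 or 3, and those under HSF1 shRNA 1 without HSF1 shRNA array 3 or any 1 control array.

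A list of 24 genes held regulators of cell cycle promoters and the 6 cell cycle genes above. Of these 24, 12 rose (50%, against 15.4% of all genes) and 4 fell (16.7%, against 14.7%) under RPA1 shRNA, led by Mybl1, a MYB family transcription factor gene (1.32 ± 0.12), the retinoblastoma gene Rb1 (0.75 ± 0.12) and the E2F genes E2f1 (0.73 ± 0.17) and E2f8 (0.65 ± 0.17). E2f1 read 11.69, 11.86 and 11.01 under RPA1 shRNA, 10.75, 10.66 and 10.65 under HSF1 shRNA and 10.77, 10.82 and 10.78 in the control, so array 3 showed the smallest part of the rise. Under HSF1 shRNA, with 20.8% called against 16.1% of all genes, 3 rose, Mybl1 (0.48 ± 0.12), E2f4 (0.30 ± 0.07) and E2f7 (0.18 ± 0.05), and 2 fell, Mki67 and Foxm1, a driver of G2 and mitosis genes (-0.34 ± 0.05). Those rises numbered 0 without array 1 or 3 of HSF1 shRNA or control array 1 or 2, and 1 without HSF1 shRNA array 2 or control array 3, where 1 gene fell as well. There were 4 falls without RPA1 shRNA array 3 and 1 without HSF1 shRNA array 3. The falls under RPA1 shRNA numbered 1 without control array 3 and 6 without RPA1 shRNA array 3. The rises under RPA1 shRNA numbered 8 to 12 when any 1 array was left out, with 8 without control array 2 or RPA1 shRNA array 2. Between the knockdowns 7 rose (29.2%, against 9.71%) and 3 fell (12.5%, against 14.7%), with Mybl1 at 0.85, E2f1 at 0.83, Rb1 at 0.71 and E2f8 at 0.70. All 24 averaged above the median gene (8.39). In the fit of the 9969 genes above it, 3179 were called under HSF1 shRNA and 4462 between the knockdowns, larger shares than in the list. Under RPA1 shRNA 2431 were higher there, a smaller share than in the list, and 2704 lower, a larger share. The part of signal height in these counts was not tested.

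Dynein and dynactin genes, which encode the motor of the opposite direction, gave 3 rises and 2 falls of 20 under RPA1 shRNA (25% called, against 30.1% of all genes), the rises being those of the dynein regulator gene Ndel1 (0.48 ± 0.06), Dctn5 (0.28) and Dynll2 (0.27) and the falls those of Nde1 (-0.35) and Dctn2 (-0.32). Under HSF1 shRNA, with 15% called against 16.1%, 2 rose, Dctn3 (0.37 ± 0.05) and Ndel1 (0.31 ± 0.06), and Dctn4 fell (-0.38 ± 0.09). Between the knockdowns, with 30% called against 24.4%, Dctn4 (0.49) and Ndel1 (0.18) rose and 4 genes fell, Dctn3 (-0.27), Dctn2 (-0.26), Dync1li2 (-0.20) and Dynlt3. The light chain gene Dynlt3 was lower by 1.07 ± 0.22, with 9.45, 9.28 and 10.33 under RPA1 shRNA and 10.79, 10.77 and 10.70 under HSF1 shRNA, so that array 3 of RPA1 shRNA was again the nearest to the other group. Without that array 6 rose under RPA1 shRNA and 5 under HSF1 shRNA. The falls under RPA1 shRNA numbered 0 without control array 1 and 1 without any 1 other array but RPA1 shRNA array 3. The fall under HSF1 shRNA was lost without array 2 or 3 of HSF1 shRNA or any 1 control array. Between the knockdowns 1 gene rose when any 1 array but RPA1 shRNA array 3 or control array 3 was left out, and 2 fell without array 1 of RPA1 shRNA or of HSF1 shRNA.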

How the data were processed

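RNA of 9 samples was hybridised to 1-colour Affymetrix Mouse Gene 1.0 ST arrays, 3 per group, grouped by the shRNA named in the labels. The deposited values are log2 signals, 1 per probe set and array, computed with RMA in Partek 6.5 per the submitters' processing notes. The notes do not name the log base, and log2 was inferred from the range of the values. The table held 35557 rows. The platform annotation paired 21789 of them with 1 symbol and 1621 with several, and 12147 are absent from it. Where several rows named a gene, the brightest on average across the 9 arrays stood for it, giving 19938 genes. Depth does not apply to arrays, and 3 arrays per group limit the precision.

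All genes and 9 arrays entered 1 fit of group means in limma 3.58.1 (R 4.3.3), with moderated variances (6 residual and 3.51 prior degrees of freedom), 3 contrasts and Benjamini-Hochberg adjustment over all genes. The fit was tested on simulated data. Same-numbered arrays were checked for pairing: their deviations from the group means correlated at -0.159 to 0.093, so the numbers were not used as pairs. Values on every array are given for the 12 called kinesins with the largest difference in each contrast and for the 3 with the highest and the 3 with the lowest control signals, and up to 4 called genes are named per related list. Other genes named beside a list, such as Klc1, Trak1 and the cell cycle and neural markers, and other members were chosen after their values were seen. Alternatives were 3 scalings, a filter on dim genes, other variance models, array weights, the mean of a gene's rows, the replicate block and leaving out each array. Leaving out each array for the related lists was added after seeing the data. The members and lists were chosen with earlier results of these data known.

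Promoter windows and gene positions came from RefSeq, GRCm38.p6. For 5 genes the start of every window lies over 1000 bases inside the gene. Kifc1 shares its probe set with Kifc5b and was not tested, and Kif19b and Kif28 are not analysed here.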

Additional observations from a re-analysis of the deposited data

How the results depend on the processing

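Over up to 19 alternatives the 42 kinesin calls of the 3 comparisons kept their direction: of 794 values, 678 stayed past the threshold and 116 did not. With Kif2a and Kif2b added, or with the mean of all rows of a gene, the mitotic median under RPA1 shRNA was -0.134. Kifc5b, meant to be added too, has no row of its own. The transport median was -0.124 under RPA1 shRNA with array weights, and between the knockdowns -0.085 with median scaling and -0.199 when dimmer genes (below the median gene) were dropped. Kinesin calls under HSF1 shRNA numbered 5 without moderation and 14 with array weights. Leaving out 1 array at a time gave 12 to 19 calls under RPA1 shRNA, 4 to 14 under HSF1 shRNA and 11 to 21 between the knockdowns. The corresponding medians were -0.221 to -0.140, -0.023 to 0.042 and -0.214 to -0.140 for mitotic kinesins, and -0.155 to -0.1, -0.087 to -0.039 and -0.175 to -0.091 for transport kinesins. With the replicate block 13, 8 and 14 kinesins were called in these 3 comparisons; the numbers do not pair the arrays. Over all genes the HSF1 shRNA split of 1971 higher and 1239 lower became 1593 and 1717 with median scaling, 1789 and 1649 with quantile and 1691 and 1734 with cyclic loess scaling. Between the knockdowns 1935 higher and 2928 lower became 2672 and 2426, 2520 and 2669, and 2503 and 2645 in the same order. With array weights 9065, 5313 and 7926 genes were called in the 3 comparisons, against 5998, 3210 and 4863. Leaving out 1 array gave 1953 to 4696 genes under HSF1 shRNA, the lowest without control array 3, and 2303 were called there without moderation. Between the knockdowns 3228 genes were called without RPA1 shRNA array 1. Signal over background was not measured, so falls to low levels may be understated. The causes of these shifts were not tested.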

Other observations

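Probe sets outside the rule gave further values. The probe set shared by Kifc1, a minus-end motor of the spindle, and Kifc5b averaged 10.16 ± 0.06 under RPA1 shRNA, 9.96 ± 0.08 under HSF1 shRNA and 10.09 ± 0.02 in the control (SD, n = 3 each), and every HSF1 shRNA array was below every control array; it was not tested. The 2 probe sets of the pseudogene Kif4-ps averaged 6.38 ± 0.20 and 7.23 ± 0.11 under RPA1 shRNA and 6.49 ± 0.04 and 7.16 ± 0.01 in the control. The second probe set of Kif1c gave differences of 0.32 for RPA1 shRNA and -0.18 for HSF1 shRNA from the control. The second probe set of Kif14 averaged 5.28 under RPA1 shRNA, 5.35 under HSF1 shRNA and 5.20 in the control.

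Some deposited values repeat exactly between arrays. The same value stood in 3 or more of the 9 arrays for 7 of the 39 kinesins (17.9%) and for 25.5% of all genes. For Kif2b it stood in 6 arrays.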
